A study of Mus musculus with 12 samples.

Results

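The T loop of a tRNA carries uridines at positions 54 and 55 in the usual tRNA numbering, and both were followed here within the same molecule. Position 55 was taken in each deposited tRNA entry as the T that lies close before the 3′ end in a GTTC-type loop (G at 53, C at 56, A at 58), and position 54 as the T next to it on the 5′ side. Of 404 entries, 213 were distinct tRNAs, and 177 of these had a position 55 by this rule, while 36 had none. A T at 54 was present in 169 of them and an A in the other 8, which gave 346 bases out of the 3129 T bases of all distinct tRNAs. The libraries came from hematopoietic stem and progenitor cells (HSPCs) of wild-type mice labelled old or young. At each age 3 libraries were made after treatment with CMC, a carbodiimide that leaves a bulky adduct on pseudouridine, and 3 after BEU buffer alone as its control. All 12 RNA samples had first been demethylated with wild-type and mutant AlkB, so AlkB treatment is shared by every group. The ages of the mice in months, the sorting markers and whether replicates came from separate animals are not given in the sources used here, so p-values measure only the spread between these samples. The tables hold tRNA rows alone, so the labelled cell type could not be checked against marker genes.

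Pseudouridine (Ψ) at 55 is one of the most common tRNA modifications, made by the TRUB family enzymes and also by PUS10. At 54 most elongator tRNAs of animals carry 5-methyluridine, made by TRMT2A, and a smaller set carries Ψ, made by PUS10. In human cells PUS10 is known to act at 54 mainly on tRNAs with AAAU at positions 57 to 60. PUS10 is named in the series title as induced by aging. Reverse transcriptase copies a tRNA from its 3′ end and therefore meets 55 before 54. A CMC adduct at 55 ends the cDNA there, so a stop at 54 can be seen only on molecules that were passed at 55. The stop rate divides the reads recorded as stopped at a base by its coverage, in percent, and the rate at 54 was thus a rate among reads that had passed 55. The deposited values add up this way: below the coverage ceiling, the coverage at 54 and the stops at 55 added up to the coverage at 55 with a median deviation of -1 read (5th to 95th percentile -9 to 6 reads, 984 values).

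The T arms that the results turn on are printed 5′ to 3′ from position 49 to 65, as the deposited rows give them, with the bases at 54 and 55 in capitals. The first set has strong stops at both bases, the second strong stops at 55 and weak ones at 54, the third weak stops at both, and the last has an A at 54.

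tRNA-Gln-CTG-1-1: ccgagTTcaaatctcgg
tRNA-Gln-TTG-2-1: ctgagTTcaaatctcgg
tRNA-Trp-CCA-4-1: gcgtgTTcaaatcacgt
tRNA-Trp-CCA-5-1: gcgtgTTcaagtcacgt
tRNA-Trp-CCA-2-1: gcgtgTTcgaatcacgt
tRNA-Arg-ACG-2-1: gtaggTTcgactcctac
tRNA-Arg-TCT-2-1: gtgggTTcgaatcccac
tRNA-Cys-GCA-11-1: cctggTTcaaatccagg
tRNA-Ala-AGC-2-1: ccgggTTcaatccccgg
tRNA-Thr-CGT-1-1: acgggTTcgaaccccgt
tRNA-Ser-TGA-1-1: gcaggTTcgaaccctgc
tRNA-Leu-TAG-2-1: gtgggTTcgaatcccac
tRNA-Val-CAC-3-1: cccggTTcgaaaccggg
tRNA-Gln-CTG-5-1: ccgagTTcaaatctcgg
tRNA-Cys-GCA-6-1: cctggTTcaaatccagg
tRNA-Ala-AGC-7-1: gcgggATcgatgcccgc

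Depth set which tRNAs could be read jointly. Coverage of at least 20 reads in all 12 libraries was reached at 55 by 160 tRNAs and at 54 by 146. Coverage never exceeded 8015 reads, which resembles a cap, and joint results therefore use tRNAs that stayed under 7500 at and 5′ of 55 in every library: 65 at 55 and 55 with both bases tested. The median coverage at 55 over tRNAs ran from 367 to 2749 reads in the CMC libraries and from 1675 to 6657 in the BEU libraries. The stop column never falls below 1, so a rate at low coverage has a floor: 1 stop in 24 reads is 4.17%. Reads that end at 55 hold only the bases from 55 to the 3′ end, and tRNAs that match over that stretch cannot be told apart by them. Among the 55 tRNAs, 6 such 3′ sequences were shared by 16 tRNAs, and in all 6 sets the members held the same stop reads at 55 and at 54 in all 12 libraries. The 55 tRNAs are therefore 45 separate sets of stop reads at 55.

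CMC-dependent stops were common at 55 and less so at 54. A T was called when edgeR's quasi-likelihood test gave an adjusted p below 0.05 over all T bases, the CMC minus BEU rise averaged at least 10 percentage points, and the rate rose in 3 of 3 pairs. At 55, 135 of 160 tRNAs were called in old HSPCs and 127 in young HSPCs. At 54, 42 of 146 were called in old HSPCs and 36 in young HSPCs. Over all 2189 T bases tested, the called share was 20.2% in old HSPCs and 18.8% in young HSPCs. The bases at 54 and 55 are counted in it. Position 55, at 84.4% and 79.4%, lay far above this share, and 54, at 28.8% and 24.7%, lay above it. Since calls at 54 and 55 raise the share, the share among other T bases is lower than these values, and its size is not given here. Counted once per 3′ sequence, 75 of 95 at 55 and 19 of 88 at 54 were called in old HSPCs, and 73 and 17 in young HSPCs.

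Within single tRNAs below the ceiling, a called stop at 54 came with a called stop at 55. Of the 55 tRNAs below the ceiling, 18 were called at both bases in old HSPCs and 16 in young HSPCs, 24 and 27 at 55 alone, 13 and 12 at neither, and 0 at 54 alone at either age. Among T bases below the ceiling the called share was 19.5% in old HSPCs and 17.7% in young HSPCs. Position 55 itself was called in 42 of the 55 tRNAs in old HSPCs and in 43 in young HSPCs. Most tRNAs called at 54 would thus have a called 55 even if the 2 bases were unrelated, and a link was not tested. The class differed between ages in 5 tRNAs; at both ages 16 were called at both bases, 23 at 55 alone and 11 at neither. Counted once per 3′ sequence, 13 of 45 were called at both bases in old HSPCs and 11 in young HSPCs, again with 0 at 54 alone. Among all 146 tRNAs, 4 were called at 54 alone in young HSPCs; all 4 are tRNA-Pro, whose coverage met the ceiling, and they were called at both bases in old HSPCs. Without old replicate 2 the same 4 were called at 54 alone in old HSPCs, and tRNA-Pro-TGG-1-1 in young HSPCs. None of the 55 tRNAs below the ceiling was called at 54 alone under any of the alternative fits.

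The rise at 54 averaged 16.9 ± 0.675 points in old HSPCs and 15.6 ± 1.51 points in young HSPCs (SD, n = 3 pairs each, 55 tRNAs), and the rise at 55 in the same tRNAs 31.8 ± 1.72 and 31.9 ± 3.33 points. The rise at 54 was 15.6 points below that at 55, with the same sign in 6 of 6 pairs (exact sign-flip permutation test over pairs, two-sided, p = 0.031, the smallest it can give). Pairs here join libraries that share only a replicate number, so counts of pairs and SDs over pairs depend on this matching. A permutation of CMC and BEU labels within each age, which needs no pairs, gave p = 0.005. The average hides a wide spread, since the median rise at 54 was 5.40 points and the highest 77.4, against a median of 38.4 and a highest of 66.3 at 55. Across the 55 tRNAs the rises at the 2 bases had a Pearson r of 0.439 and a Spearman rho of 0.625; among the 41 called at 55 at both ages these were 0.237 and 0.178. These points share libraries and, in part, reads.

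**Figure D1:**
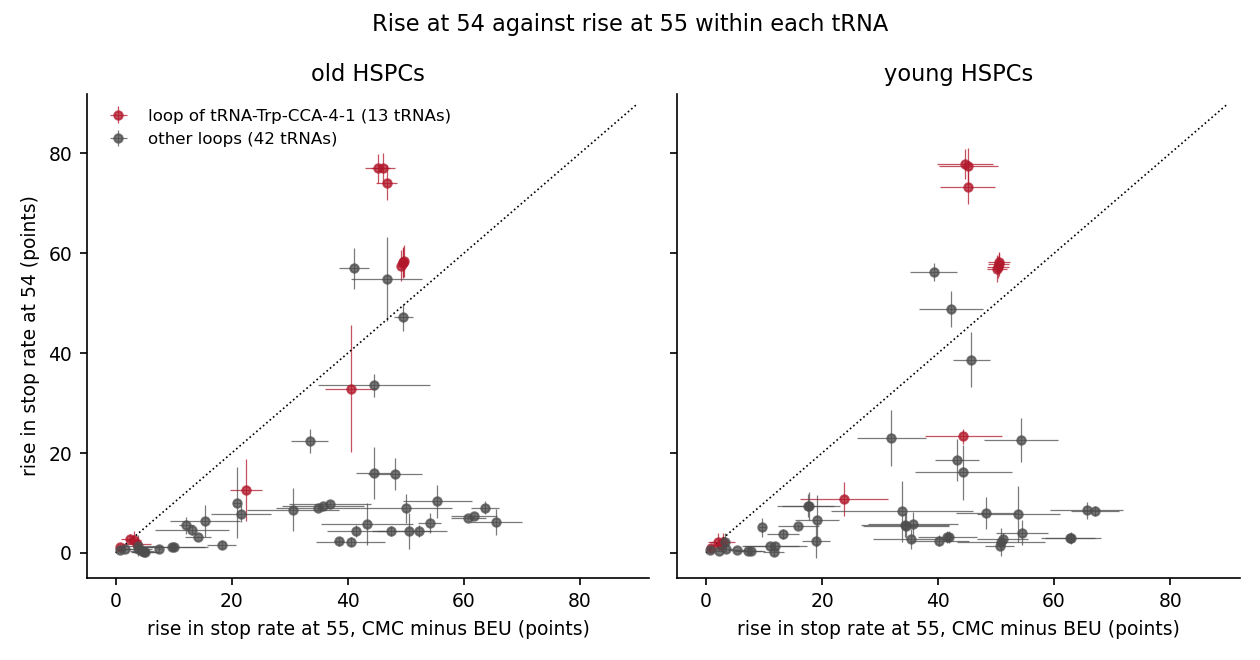
Rise in stop rate at 54 (y axis, percentage points, CMC minus BEU) against the rise at 55 (x axis) in each of 55 tRNAs, in old HSPCs (left) and young HSPCs (right); points are means of 3 pairs, bars are SD, and the dotted line marks equal rises. The 13 tRNAs in red share the 7 loop bases of tRNA-Trp-CCA-4-1. No tRNA lies high on the y axis and near 0 on the x axis, while many lie far right with values at 54 under 10 points.

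Since each rate at 54 is conditional, the reads that reached 55 can be divided into those stopped at 55, those that passed 55 and stopped at 54, and those that passed both. In the 16 tRNAs called at both bases at both ages, 46.0% ± 0.781 stopped at 55, 25.8% ± 0.560 at 54 and 28.1% ± 1.26 passed both in old CMC libraries. In young CMC libraries the shares were 45.9% ± 3.71, 25.1% ± 1.65 and 29.0% ± 2.81 (SD, n = 3). In BEU libraries 95.2% ± 0.684 of reads passed both bases in old HSPCs and 94.8% ± 0.763 in young HSPCs. In the 23 tRNAs called at 55 alone, 40.3% ± 2.45 stopped at 55 and 3.94% ± 0.242 at 54 in old CMC libraries, against 41.2% ± 4.38 and 3.34% ± 0.503 in young CMC libraries, so that 55.8% ± 2.33 and 55.4% ± 4.86 passed both. The classes were made from these rates, so the shares are a description.

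**Figure D2:**
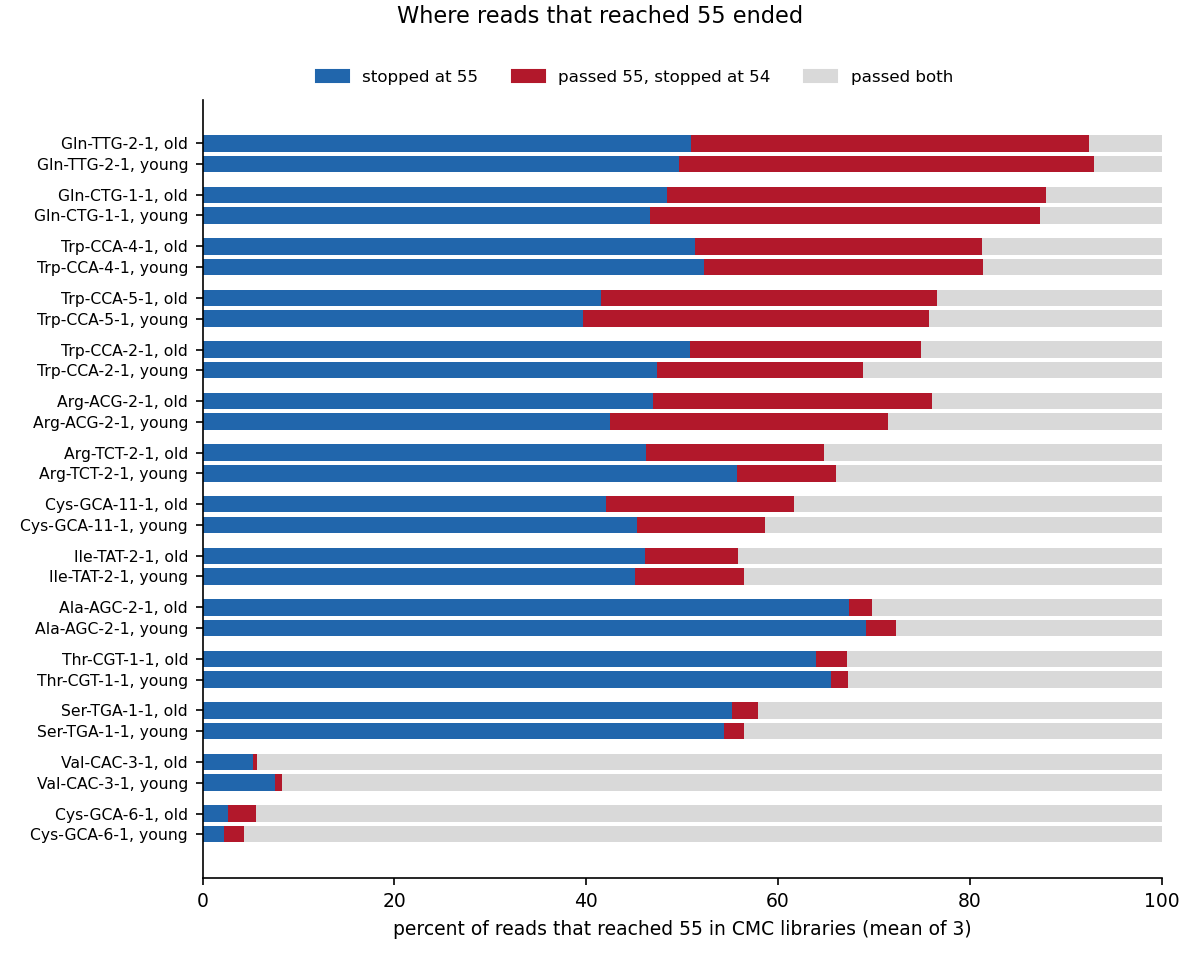
Percent of reads that reached 55 (x axis) and stopped at 55 (blue), passed 55 and stopped at 54 (red) or passed both (grey) in CMC libraries, for 14 tRNAs, old above young; each bar is the mean of 3 libraries. The red share is widest in the 2 tRNA-Gln shown, wide in the 3 tRNA-Trp and in tRNA-Arg-ACG-2-1, narrow in tRNA-Ala, tRNA-Thr and tRNA-Ser, and the last 2 tRNAs are almost wholly grey.

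The strongest stops at 54 lay in tRNA-Gln. In tRNA-Gln-CTG-1-1 the stop rate at 55 was 48.9%, 50.0% and 46.5% in old CMC libraries and 1.18%, 2.24% and 1.79% in old BEU libraries, and 45.3%, 43.0% and 51.8% in young CMC and 1.32%, 2.03% and 1.43% in young BEU libraries. At 54, 76.5%, 80.4% and 73.4% of the reads that had passed 55 stopped in old CMC libraries against 2.01%, 2.89% and 2.87% in old BEU libraries. In young HSPCs these were 79.4%, 72.7% and 76.9% with CMC and 3.23%, 3.33% and 2.38% with BEU. CMC and BEU libraries did not overlap at either base or age, and old and young libraries overlapped at both. As a result 12% ± 2.22 of reads passed both bases in old CMC libraries and 12.6% ± 2.5 in young CMC libraries (SD, n = 3). tRNA-Gln-TTG-2-1 and tRNA-Gln-TTG-5-1 share their 3′ sequence with it and held the same stop reads, for example 273, 168 and 452 at 54 in the 3 old CMC libraries. Their coverage at 54 there was lower, at 318, 195 and 553 reads in tRNA-Gln-TTG-2-1 and 307, 191 and 528 in tRNA-Gln-TTG-5-1, against 357, 209 and 616 in tRNA-Gln-CTG-1-1. Their rises at 54, 77.0 ± 3.18 and 77.0 ± 2.86 points in old HSPCs and 77.4 ± 3.76 and 77.9 ± 2.96 points in young HSPCs, are thus the same stops over smaller totals and no separate measurement.

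The rise at 54 exceeded the rise at 55 in 6 of 6 pairs in 9 of the 16 tRNAs called at both bases at both ages, or in 4 when counted once per 3′ sequence: tRNA-Gln-CTG-1-1, tRNA-Trp-CCA-4-1, tRNA-Trp-CCA-5-1 and tRNA-Arg-ACG-2-1. All 6 tRNA-Trp below the ceiling were called at both bases at both ages, beside 16 of all 55 tRNAs. Of these 6, 4 (1-1, 3-1, 4-1 and 6-1) share 1 T arm and 1 set of stop reads. In tRNA-Trp-CCA-4-1 the rate at 55 was 51.1%, 51.4% and 51.6% in old CMC libraries and 50.2%, 53.3% and 53.4% in young CMC libraries. At 54 it was 63.6%, 57.4% and 63.7% in old CMC libraries and 62.1%, 63.2% and 57.5% in young CMC libraries, while no BEU library exceeded 5.33% at either base. The old and young libraries overlapped at both bases, and 18.7% ± 1.74 and 18.6% ± 1.34 of reads passed both.

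The other 2 tRNA-Trp differ from tRNA-Trp-CCA-4-1 by 2 of 74 bases each, 1 of them in the T arm. tRNA-Trp-CCA-2-1 differs there by A57G (the base of 4-1, the tRNA position, the base of 2-1). Its rate at 54 was 49.8%, 50.6% and 46.4% in old CMC libraries and 37.0%, 38.9% and 47.0% in young CMC libraries, below every CMC library of tRNA-Trp-CCA-4-1. The rise at 54 was lower by 5.71 to 24.0 points over the pairs, a mean of -14.6 ± 7.24 points (SD, n = 6 pairs), whereas at 55 the difference was -2.21 ± 3.25 points and changed sign between pairs. tRNA-Trp-CCA-5-1 differs by A59G. Its rate at 55 was 42.6%, 43.1% and 39.0% in old CMC libraries and 38.8%, 36.1% and 44.2% in young CMC libraries, again below every CMC library of tRNA-Trp-CCA-4-1. Here the rise at 55 was lower in 6 of 6 pairs, by -9.73 ± 3.25 points, and the difference at 54 was -0.937 ± 4.80 points with both signs. The loop change and the second difference, outside the T arm, cannot be told apart, and the pairs were chosen after their values were seen, so no test is given.

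**Figure D3:**
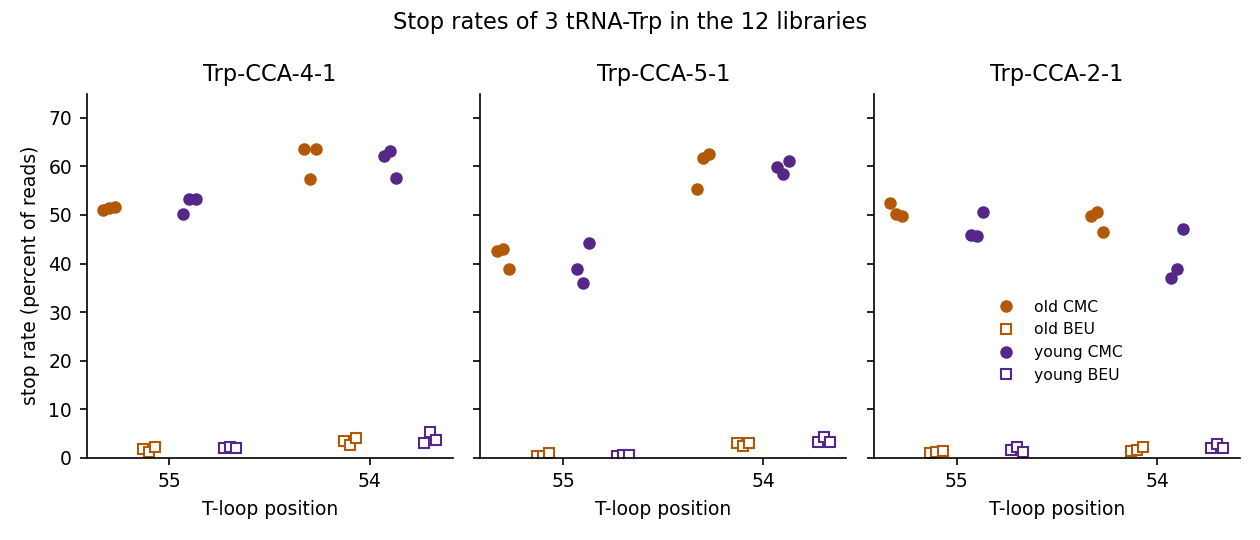
Stop rate (y axis, percent of reads covering the base) at 55 and 54 (x axis) in 3 tRNA-Trp, with a point for each of the 12 libraries; filled circles are CMC, open squares BEU, orange old and purple young. BEU points lie near 0 throughout; the CMC points of tRNA-Trp-CCA-5-1 are lower at 55 and those of tRNA-Trp-CCA-2-1 lower at 54 than those of tRNA-Trp-CCA-4-1.

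Of 12 tRNA-Arg below the ceiling, all 12 were called at 55 in old HSPCs and 11 in young HSPCs, and 5 and 4 at 54. Over all tRNAs below the ceiling, 76.9% in old HSPCs and 78.5% in young HSPCs were called at 55. At 54 these shares were 32.7% and 29.1%, and the tRNA-Arg counts at 54 lie near them. tRNA-Arg-ACG-2-1 had 41.7%, 53.7% and 45.4% at 55 in old CMC libraries and 38.1%, 40.5% and 48.8% in young CMC libraries, with at most 0.352% in any BEU library. At 54 it had 49.2%, 64.5% and 52.6% in old CMC libraries and 53.7%, 47.1% and 50.0% in young CMC libraries, overlapping between ages. The 64.5% was 20 of 31 reads, with a 95% Wilson interval of 46.9% to 78.9%. The 53.7% at 55 in that library was 36 of 67 reads, with an overlapping interval of 41.9% to 65.1%. tRNA-Arg-TCT-2-1 had the lowest old minus young difference at 55 and the highest at 54 among tRNAs below the ceiling. At 55 it had 48.7%, 35.1% and 54.8% in old CMC libraries against 62.4%, 48.6% and 56% in young CMC libraries. At 54 it had 35.0%, 36.0% and 32.1% in old CMC libraries against 27.8%, 20.8% and 22.7% in young CMC libraries, without overlap. The share of reads that passed both was nonetheless 35.2% ± 5.63 in old CMC libraries and 34.0% ± 6.76 in young CMC libraries (SD, n = 3). Its shallowest library had 22 reads at 54, where 5 stops give 22.7% with a 95% Wilson interval of 10.1% to 43.4%, for counting error only. tRNA-Arg-TCT-3-1 and tRNA-Arg-TCG-1-1 were also called at 54 at both ages, with rises of 15.8 ± 3.17 and 22.4 ± 2.42 points in old HSPCs and 16.1 ± 5.52 and 23.1 ± 5.61 points in young HSPCs.

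Joint stops were also called in tRNA-Ile, tRNA-Cys and tRNA-Thr. tRNA-Ile-TAT-2-1 rose by 44.5 ± 2.97 points at 55 and 16.0 ± 5.23 at 54 in old HSPCs, and by 43.3 ± 3.82 and 18.6 ± 4.30 in young HSPCs (SD, n = 3). tRNA-Cys-GCA-11-1 rose by 40.5 ± 4.4 at 55 and 32.8 ± 12.7 at 54 in old HSPCs, and by 44.3 ± 6.63 and 23.3 ± 1.59 in young HSPCs. Its old CMC rates at 54, 40%, 43.5% and 19.6%, spread more widely than its young ones, 24.0%, 26.2% and 22.7%. The lowest old library lay below all young ones. The 40% was 8 of 20 reads, at the coverage minimum, with a Wilson interval of 21.9% to 61.3% for counting error only. This interval holds all the young rates, and whether the wider spread exceeds counting error was not tested. tRNA-Thr-AGT-4-1 rose by 22.5 ± 2.74 at 55 and 12.5 ± 6.21 at 54 in old HSPCs, and by 23.7 ± 7.57 and 10.8 ± 3.42 in young HSPCs.

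A second class carried strong stops at 55 with little at 54. tRNA-Ala-AGC-2-1, with the highest rise at 55 below the ceiling, had 66.3%, 71.5% and 64.3% in old CMC libraries and 69.7%, 65.4% and 72.5% in young CMC libraries. At 54 it had 5.37%, 9.57% and 7.49% in old CMC libraries and 10.4%, 9.09% and 10.6% in young CMC libraries. The tRNA was not called at 54 at either age, since the rise stayed under 10 points, although its adjusted p was 4.3e-05 in old HSPCs and 1.7e-05 in young HSPCs (edgeR). tRNA-Thr-CGT-1-1 rose by 61.7 ± 3.92 points at 55 in old HSPCs and 62.7 ± 4.35 in young HSPCs, against 7.35 ± 0.388 and 2.97 ± 1.03 at 54. tRNA-Leu and tRNA-Ser, the tRNAs with a long variable arm next to the T stem, belonged here: all 6 below the ceiling were called at 55 at both ages and 0 at 54, beside 19.5% of T bases below the ceiling called in old HSPCs and 17.7% in young HSPCs, a share that 0 of 6 does not set apart. Their rises at 55 averaged 45 ± 1.27 points in old HSPCs and 45 ± 3.85 in young HSPCs, and those at 54 4.44 ± 0.572 and 2.43 ± 1.11 points. In tRNA-Ser-TGA-1-1, for example, 52.1%, 57.3% and 56.2% stopped at 55 in old CMC libraries and 56.9%, 46.4% and 59.9% in young CMC libraries, with 3.07% to 7.53% at 54 in all 6.

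The third class showed little at either base. tRNA-Val-CAC-3-1 had 3.49%, 7.85% and 4.49% at 55 in old CMC libraries and 9.14%, 8.76% and 4.79% in young CMC libraries, and under 1% at 54 in each. Its coverage at 55 was 167 to 993 reads in CMC libraries, and 94.3% ± 2.41 of reads in old CMC libraries and 91.7% ± 2.51 in young CMC libraries passed both bases. At 54 its shallowest CMC library held 1 stop in 159 reads, which is the floor. tRNA-Gln-CTG-5-1 had rates from 0.377% to 1.25% at 55 and from 0.501% to 1.88% at 54 in CMC libraries, where coverage was 90 to 798 reads. There 1 stop alone makes 0.126% to 1.11% at 55, so these rates lie close to the floor. tRNA-Cys-GCA-6-1 had rates from 0.515% to 4.17% at 55; at its lowest coverage of 24 reads the 1 recorded stop is the floor, with a Wilson interval of 0.739% to 20.2%.

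An identical T arm did not bring identical values. Among the 55 tRNAs, 13 arms were shared by 2 or more tRNAs, 32 in all, and their 6-pair mean rises spanned more than 10 points at 55 in 5 arms and at 54 in 4. tRNA-Gln-CTG-1-1 and tRNA-Gln-CTG-5-1 share all 17 bases printed above, yet their rises differed by -45.1 ± 3.10 points at 55 and -72.7 ± 2.94 at 54 (5-1 minus 1-1, SD, n = 6 pairs). The stop reads of tRNA-Gln-CTG-1-1 are those also held by tRNA-Gln-TTG-2-1 and tRNA-Gln-TTG-5-1. The rates of tRNA-Gln-CTG-5-1 lie close to the floor. tRNA-Cys-GCA-6-1 differed from tRNA-Cys-GCA-11-1, with the same arm, by -40.1 ± 4.51 at 55 and -25.6 ± 9.31 at 54. tRNA-Arg-TCT-2-1 and tRNA-Leu-TAG-2-1 share an arm too; both were called at 55 (44.5 ± 9.60 and 38.5 ± 0.915 points in old HSPCs, 54.2 ± 6.39 and 42 ± 0.567 in young HSPCs). At 54 tRNA-Leu-TAG-2-1 rose by only 2.28 ± 0.929 points in old HSPCs and 3.22 ± 1.15 in young HSPCs, against 33.5 ± 2.31 and 22.6 ± 4.4 in tRNA-Arg-TCT-2-1. At the other extreme the 4 tRNA-Trp of 1 arm, which share their stop reads, spanned 0.163 points at 55 and 0.398 at 54.

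tRNAs with AAAT at 57 to 60, the bases named above for human PUS10, were set against the other T54 tRNAs. Of the 13 below the ceiling, all with the loop of tRNA-Trp-CCA-4-1, 9 were called at both bases at both ages: 3 tRNA-Gln, 4 tRNA-Trp, tRNA-Cys-GCA-11-1 and tRNA-Thr-AGT-4-1. The other 4 (tRNA-Gln-CTG-5-1, tRNA-Cys-GCA-6-1, tRNA-Cys-GCA-10-1 and tRNA-Thr-AGT-6-1) were called at neither base. Over all 55 tRNAs, 16 were called at both bases at both ages and 11 at neither. At 54 the 13 rose by 39.6 ± 2.01 points in old HSPCs and 38.4 ± 1.13 in young HSPCs, against 9.83 ± 0.801 and 8.57 ± 1.63 in the other 42 (SD, n = 3 pairs). The difference of 29.8 points had the same sign in 6 of 6 pairs (exact sign-flip permutation test, two-sided, p = 0.031, the smallest it can give), a p that speaks for these libraries and not for other tRNAs. Counted once per 3′ sequence, with 8 tRNAs against 37, it was 12.5 points in the same direction (p = 0.031), and without tRNA-Gln and tRNA-Trp it was 2.10 points (exact permutation p = 0.125, 5 tRNAs against 40). Among tRNAs below the ceiling, tRNA-Gln and tRNA-Trp thus carried most of it. The 5 left include tRNA-Cys-GCA-6-1, tRNA-Cys-GCA-10-1 and tRNA-Thr-AGT-6-1, which were called at neither base. These 2 repeats were chosen after seeing the data. Over all tested tRNAs, with those at the ceiling, the difference was 20.4 points. At a coverage minimum of 50 it was 44.6 points (exact permutation p = 0.031 for each).

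At 55 the 13 rose by 31.4 ± 1.12 points in old HSPCs and 31.7 ± 2.67 in young HSPCs, against 31.9 ± 1.92 and 32 ± 3.61 in the other 42. The difference of -0.337 points (range over pairs -2.0 to 1.5; exact permutation p = 0.5) had no stable direction, as it was -10.9 points once per 3′ sequence and 7.06 points at a coverage minimum of 50 (exact permutation p = 0.031 for each). The old minus young difference of the contrast was -0.130 points at 54 and -0.205 at 55 (exact permutation test of 3 against 3 pairs, p = 0.9 and 1.0). Stops at 54 were also found without AAAT: 7 of the other 42 tRNAs were called there at both ages, all named above (tRNA-Trp-CCA-2-1, tRNA-Trp-CCA-5-1, tRNA-Arg-ACG-2-1, tRNA-Arg-TCT-2-1, tRNA-Arg-TCT-3-1, tRNA-Arg-TCG-1-1 and tRNA-Ile-TAT-2-1). Among T bases below the ceiling 19.5% were called in old HSPCs and 17.7% in young HSPCs, and 7 of 42 lies near that share.

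**Figure D4:**
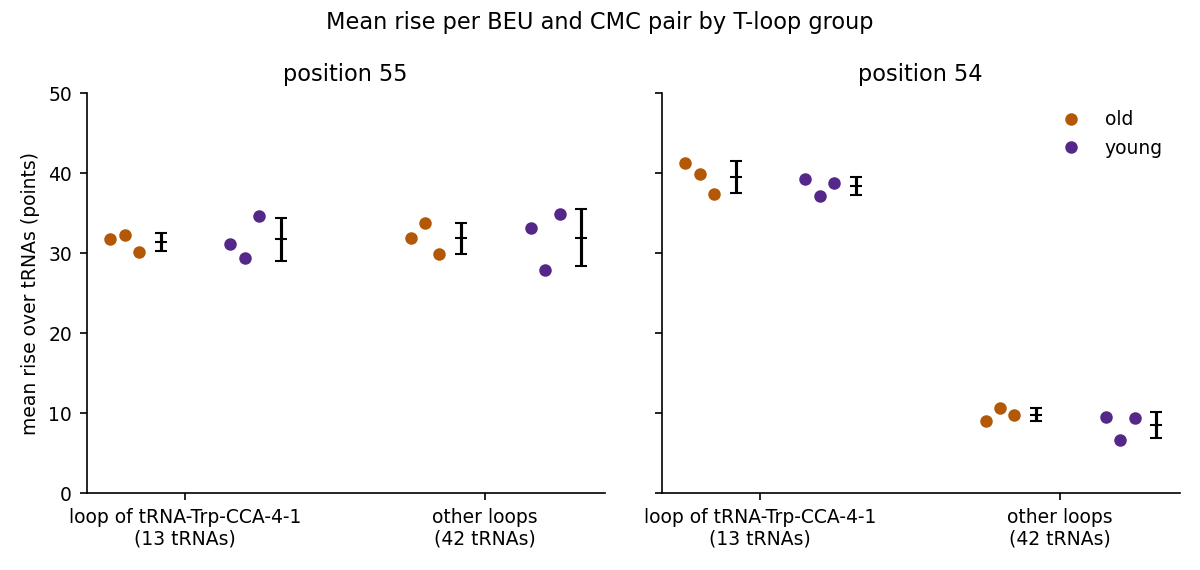
Mean rise in stop rate over tRNAs (y axis, percentage points) at 55 (left) and 54 (right) in the 13 tRNAs with the loop of tRNA-Trp-CCA-4-1 and the other 42 tRNAs; each point is 1 BEU and CMC pair, old in orange and young in purple, with the mean and SD of 3 beside them. At 54 the 6 pairs of the first group all lie above those of the second, and at 55 the groups overlap.

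Among other loops, all 7 tRNAs with C at 60 after GAA at 57 to 59, among them tRNA-Thr-CGT-1-1, tRNA-Ser-TGA-1-1 and tRNA-Met-CAT-2-1, were called at 55 at both ages and 0 at 54, where 19.5% of T bases below the ceiling were called in old HSPCs and 17.7% in young HSPCs. A count of 0 of 7 lies near that share. Their rises at 54 averaged 5.67 ± 0.492 points in old HSPCs and 2.66 ± 1.19 in young HSPCs. The 3 with AATC there, tRNA-Ala-AGC-2-1, tRNA-Ala-CGC-2-1 and tRNA-Phe-GAA-3-1, had the highest mean rise at 55 among loops with 3 or more tRNAs, 57.5 ± 4.92 in old HSPCs and 58.1 ± 5.19 in young HSPCs, and 7.01 ± 1.89 and 6.71 ± 1.09 at 54. These loop groups were set up with results known, and the tRNAs of a group share arms and reads.

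The stops were sharp. In the T54 tRNAs below the ceiling, the rise at the G at 53 was 2.03 ± 0.582 points in old HSPCs and 1.61 ± 0.783 in young HSPCs (50 tRNAs), and at the C at 56 it was 2.16 ± 0.379 and 1.74 ± 1.51 points (55 tRNAs). No tRNA averaged 10 points at either neighbour. In all 8 tRNAs with A at 54, including those at the ceiling, the rise at that A was 1.61 ± 0.434 points in old HSPCs and 0.954 ± 0.924 in young HSPCs. Their T55 rose by 23.3 ± 2.95 and 23.2 ± 4.09. In the 4 of them below the ceiling, T55 rose by 37.4 ± 5.55 points in old HSPCs and 37.4 ± 5.04 in young HSPCs. The A at 54 rose by 1.73 ± 1.39 and 0.764 ± 0.797 there. The 5 tRNA-Ala among the 8 were called at 55 at both ages, as were 125 of all 160 tRNAs tested there. In tRNA-Ala-AGC-7-1 the rate at 55 was 43.3%, 46.6% and 36.5% in old CMC libraries and 40.7%, 33.1% and 37.1% in young CMC libraries, with 1.13% to 3.45% at A54. The 3 initiator tRNAs (tRNA-iMet), which start translation and had coverage at the ceiling, were not called at 55, with rises of 4.95 to 6.77 points in old HSPCs and 4.48 to 7.74 in young HSPCs.

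Age was compared base by base and over all tRNAs together. The interaction of age with CMC in edgeR called 0 of 136 tRNAs at 55 and 0 of 35 at 54 at an adjusted p below 0.05, as it did 0% of the 439 T bases tested; DESeq2 and limma also called 0. At an unadjusted p below 0.05 there were 0 at 55 and 3 at 54, against 4.56% of the 439. Below the ceiling there were 0 of 51 at 55 and 2 of 16 at 54, against 7.44% of T bases there. The mean rise at 55 over 65 tRNAs was 32.5, 33.5 and 30.6 points in the old pairs and 33.3, 28.9 and 35.9 in the young pairs, a difference of -0.461 (exact permutation test of 3 against 3, two-sided, p = 0.9, where 0.1 is the smallest possible). At 54, over 55 tRNAs, it was 16.7, 17.6 and 16.3 points in the old pairs and 16.6, 13.9 and 16.4 in the young pairs, a difference of 1.23 (exact permutation p = 0.4). It was 0.363 without young replicate 2 and 0.739 without old replicate 2. At a coverage minimum of 50 the difference at 54 was 1.07 (exact permutation p = 0.1, the smallest possible). There all old pairs lay above all young pairs. The share of reads stopped at either base rose by 40.2 ± 2.05 points in old HSPCs and 39.6 ± 3.90 in young HSPCs, a difference of 0.587 (exact permutation p = 0.9). In each case old and young pairs overlapped, and no difference could be told from the spread between pairs. Across tRNAs the old and young rises had a Pearson r of 0.992 at 54 and 0.990 at 55 (55 tRNAs).

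Old and young pairs did not overlap at 54 in 21 of 146 tRNAs, 19 of them with the old pairs higher, and at 55 in 6 of 160, 2 with the old pairs higher. Over all 2189 T bases the share without overlap was 9.18%, and 7.72% with the old pairs higher. Below the ceiling there were 8 of 55 at 54, all with the old pairs higher, against 9.33% of T bases in either direction and 7.55% with the old pairs higher; counted once per 3′ sequence they were 5 of 45. Apart from tRNA-Arg-TCT-2-1 they had small rises: in tRNA-Arg-TCG-2-1 9.08 ± 0.406 points in old HSPCs against 5.52 ± 2.38 in young HSPCs, in tRNA-Thr-CGT-1-1 the values given above, and in tRNA-Leu-TAA-1-1 8.92 ± 2.89 against 1.35 ± 0.660. In tRNA-Thr-CGT-1-1 the rates at 54 were 8.94%, 8.44% and 9.59% in old CMC libraries and 4.95%, 4.46% and 5.31% in young CMC libraries, and its rise at 55 overlapped between ages. These rises were under 10 points and so outside the interaction test. The highest age differences at 54 were 10.9 ± 2.87 points in tRNA-Arg-TCT-2-1, 9.53 ± 7.41 in tRNA-Cys-GCA-11-1 and 8.50 ± 3.57 in tRNA-Trp-CCA-2-1 (old minus young, SE), with an adjusted p of 0.999 for each (edgeR). At 55 they ran from -9.73 ± 6.66 in tRNA-Arg-TCT-2-1 to 7.10 ± 4.59 in tRNA-Ile-TAT-1-1 below the ceiling, with an adjusted p of 0.999 for both (edgeR).

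**Figure D5:**
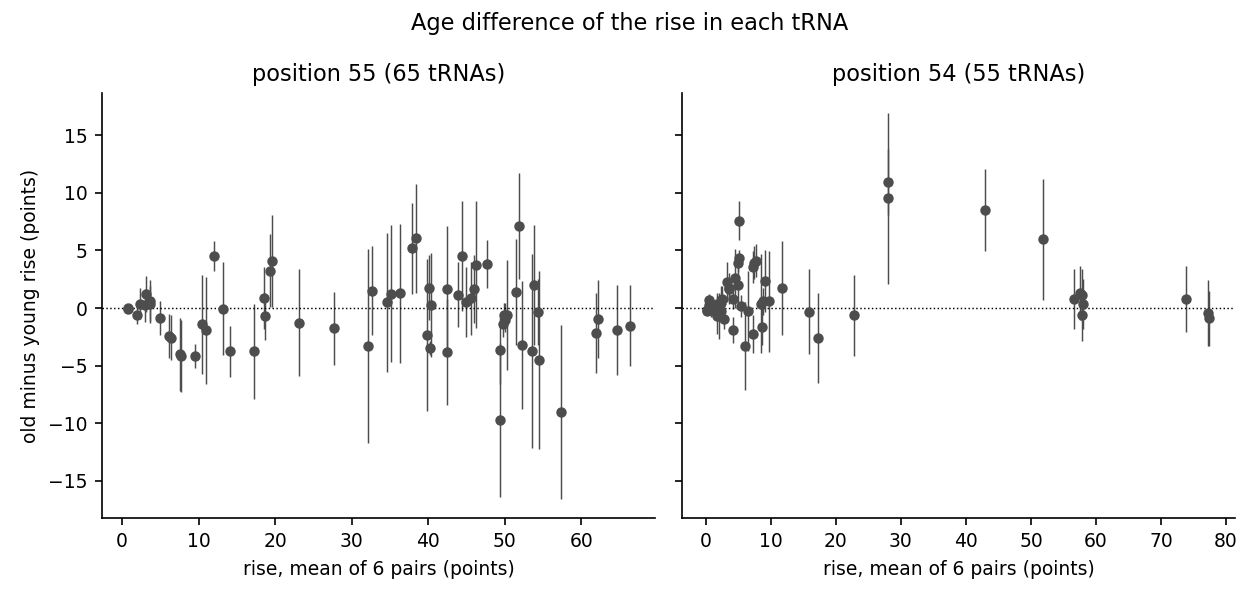
Old minus young difference of the rise (y axis, percentage points, bars are SE) against the 6-pair mean rise (x axis) at 55 (left, 65 tRNAs) and 54 (right, 55 tRNAs) in tRNAs below the ceiling. The points scatter on both sides of the dotted line at 0; at 54 the highest 3 are tRNA-Arg-TCT-2-1, tRNA-Cys-GCA-11-1 and tRNA-Trp-CCA-2-1.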

How the data were processed

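DM-Ψ-seq small-RNA libraries of old and young HSPCs, with CMC or BEU buffer, gave 6 deposited tables, each with 1 BEU and 1 CMC library. Per the file headers, the authors gave coverage (counts of reads over a base), stop reads (whole numbers) and the stop rate, a percent equal to stops over coverage. Bowtie2 2.3.5, Bowtie and the mm10 build appear in the submitters' processing notes; the stop rule, the mismatches allowed and the handling of reads that match several tRNAs are not given in the sources used here. Entries with identical values were counted once. Stop and read-through counts of all T bases with coverage of at least 20 were fitted in edgeR 4.0.16 (R 4.3.3; a coefficient per library and 4 group log odds, no dispersion trend), with Benjamini-Hochberg adjustment and checks on simulated data. Age (old minus young) was an interaction tested where the 6-pair rise averaged at least 10 points. Means over tRNAs were compared by exact permutation over pairs (Python 3.11.15). DESeq2 1.42.0, limma 3.58.1, coverage minimums, 1 subtracted from stops, all entries, log2 odds (computed from the deposited counts with 0.5 added), a replicate block and left-out replicates were alternatives. Named tRNAs are the extremes of rise and age difference at each base, those called at 54 at both ages and the best covered of each amino acid; others were named after their values were seen. The bases and lists were chosen with earlier results of these data known. Replicate numbers did not pair libraries (correlations of same-number deviations -0.539 to 0.261). Entry names matched no coordinates used here.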

Additional observations from a re-analysis of the deposited data

How the results depend on the processing

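Counts of calls followed how tRNAs were counted. With all 404 entries, 304 at 55, 76 at 54 and 76 at both bases were called in old HSPCs, and 275, 63 and 49 in young HSPCs; in a fit of bases below the ceiling they were 50, 22 and 18 in old and 51, 17 and 16 in young, where the 4 and 1 called at 54 alone had their 55 at the ceiling and outside that fit; once per 3′ sequence (an alternative chosen after seeing the data) they were 75, 19 and 19 in old and 73, 17 and 16 in young. Under the replicate block, for numbers that share only a number, 133 and 126 were called at 55, 42 and 36 at 54, 41 and 32 at both, and 0 by age, and no count moved by over 1.5 times. Without old replicate 1, 1 base differed by age, position 54 of tRNA-Arg-ACG-3-1 (adjusted p = 0.0175, edgeR), by -1.22 points. The coverage of this tRNA met the ceiling in 5 of the 12 libraries. Every other alternative gave 0. The age difference at 55 was 0.133 at a coverage minimum of 50, 1.12 over all tested tRNAs and -2.38 to 1.42 with a replicate left out. That of reads stopped at either base was -1.63 to 2.04 with a replicate left out. The age difference at 54 was 0.363 to 1.72 with a replicate left out and 1.07 at a coverage minimum of 50 (exact permutation p = 0.1). These permutations cannot give a p below 0.1. The contrast of AAAT tRNAs at 54 was 29.3 to 30.2 and the 54 minus 55 difference -16.0 to -14.6 with a replicate left out, where 5 pairs cannot reach a p of 0.05; the first was 2.10 without tRNA-Gln and tRNA-Trp (p = 0.125, exact permutation; the cause was not tested). At 55 that contrast was 7.06, 2.79 and 6.64 at a coverage minimum of 50, of 10 and with none, 1.73 with all entries, -2.51 over all tested tRNAs, -0.881 in log2 odds, -10.9 once per 3′ sequence, -3.87 once per T arm and -16.6 without tRNA-Gln and tRNA-Trp (exact permutation p = 0.031 for each), and -0.704 to 0.833 with a replicate left out. Depth limits tRNAs with few CMC reads, where the floor of 1 stop sets the lowest rate; bases at the ceiling may be misread, and reads shared by tRNAs with 1 3′ end cannot be assigned.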
